A study of Rattus norvegicus with 15 samples.

Results

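The complement genes of the rat posterior cerebral artery are described here: the 3 chains of C1q (C1qa, C1qb and C1qc), the C1 proteases C1r and C1s, the central component C3, the convertase proteins C2 and Cfb, and the regulator Cd55. Every probe set whose platform symbol is one of these 9 genes was taken, which gave 9 of the 15866 probe sets on the array that are not controls. C1qa, C1qb, C1qc, C1r, C1s and C3 had 1 probe set each. Cd55 had 2, designed from a single transcript record, of which the brighter is called the first. C2 and Cfb had none of their own, but share 1 that the platform table annotates to both, so its signal belongs to neither gene alone.

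The arrays measured the artery labelled ipsilateral in Sprague Dawley rats of 7 weeks and 300 to 350 g. That is the side of the ligated carotid in rats with the occlusion, and arteries of sham-operated and intact rats carry the same label. In 3-vessel occlusion (3VO), both vertebral arteries were coagulated and the left common carotid artery was tied under isoflurane with buprenorphine, which lowers brain perfusion without ischemia. The 5 groups of 3 arrays were 3VO after 24 h, sham surgery after 24 h, 3VO after 3 d, sham surgery after 3 d, and intact rats. Before the arteries were dissected, vessels were dilated with papaverin and filled with latex. Each array held RNA from the pooled arteries of 8 rats. Since the labels speak of repeated hybridisation and do not say that the pools of a group are separate, p-values measure only the spread between these arrays. A whole vessel holds smooth muscle, endothelium, adventitia and any cells on it.

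Signals had medians between 2553.4 and 2938.4 on the 15 arrays, and arrays of 1 group correlated at 0.9129 or more across probe sets. Markers of the labelled tissue were present on every array, among them the smooth muscle genes Acta2, Myh11 and Tagln and the endothelial genes Pecam1 and Kdr. The array that is replicate 1 of sham surgery at 3 d has a treatment text that describes the occlusion, against its title and source. A further pair of arrays was rich in choroid plexus transcripts, replicate 3 of sham surgery at 3 d and replicate 2 of intact rats, with summed marker signals of 585000 and 604000. Several of the values that rest on these 3 arrays are also given without them.

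Complement is a cascade of plasma proteins that can also be made locally. C1q binds immune complexes, dying cells or other surfaces and activates C1r, which in turn activates C1s; C1s cleaves C4 and C2 to build the classical C3 convertase. Factor B, the product of Cfb, forms the alternative convertase with cleaved C3, and Cd55 on the cell surface takes both convertases apart. C1q chains are known as products of tissue macrophages and microglia, whereas C3 is an acute phase protein of the liver that many cells make under inflammatory cytokines.

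Promoters were held for 5 of the 9 genes in the RefSeq-derived table of build GRCr8, from 250 bases before to 50 bases after the annotated start. They were searched on both strands for 5 short motifs that factors of myeloid or acute phase transcription are known to bind. The first was the ETS site of the PU.1 type GGAAGT, which 22.6% of 33469 promoters hold. The C/EBP site TTGCNNAA is in 10.6% of them, the STAT site TTCNNNGAA in 8.9%, the NF-kappaB site in 4.2% and the interferon response site in 3.9%. The 4 promoters with a match are shown, because they set a pair of C1q chains beside C1r and C3, the genes whose time courses are compared. Whether the matches bear on those time courses was not tested. Capitals mark the matches.
C1qa, chr5:154419884-154420183, minus strand: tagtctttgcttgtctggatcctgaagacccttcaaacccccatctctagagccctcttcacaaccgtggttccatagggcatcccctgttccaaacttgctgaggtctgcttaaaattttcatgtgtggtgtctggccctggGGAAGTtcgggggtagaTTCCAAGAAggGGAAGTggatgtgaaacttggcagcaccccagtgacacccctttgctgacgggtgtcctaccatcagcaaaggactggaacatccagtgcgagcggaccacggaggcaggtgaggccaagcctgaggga
C1qb, chr5:154407778-154408077, minus strand: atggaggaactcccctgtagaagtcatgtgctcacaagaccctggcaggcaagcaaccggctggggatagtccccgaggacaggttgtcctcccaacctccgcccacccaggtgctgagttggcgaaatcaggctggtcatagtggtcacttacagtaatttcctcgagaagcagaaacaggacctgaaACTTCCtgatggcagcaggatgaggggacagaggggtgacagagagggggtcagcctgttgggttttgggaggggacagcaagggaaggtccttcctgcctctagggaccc
C1r, chr4:159098763-159099062, plus strand: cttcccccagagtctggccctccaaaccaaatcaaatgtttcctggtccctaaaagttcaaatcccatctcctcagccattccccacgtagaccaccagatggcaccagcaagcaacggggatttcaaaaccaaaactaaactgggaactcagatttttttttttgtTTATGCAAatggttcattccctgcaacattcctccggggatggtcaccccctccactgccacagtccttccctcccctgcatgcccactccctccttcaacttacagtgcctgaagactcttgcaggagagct
C3, chr9:2201290-2201589, minus strand: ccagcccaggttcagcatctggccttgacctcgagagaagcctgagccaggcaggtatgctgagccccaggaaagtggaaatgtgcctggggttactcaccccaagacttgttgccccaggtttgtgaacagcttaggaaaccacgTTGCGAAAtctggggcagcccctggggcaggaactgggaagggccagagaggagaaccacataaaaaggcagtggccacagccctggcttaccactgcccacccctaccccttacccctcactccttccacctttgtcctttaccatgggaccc
C1qa held the ETS letters at -107 and -79 from the start and the STAT letters TTCCAAGAA at -90, with no overlap between them. C1qb held the ETS letters on the other strand (ACTTCC) at -61. C1r and C3 each held a C/EBP match, TTATGCAA on the other strand at -83 in C1r and TTGCGAAA at -104 in C3. The Cd55 window held none of the 5. In the same annotation C1qa, C1qc and C1qb lie next to each other on chromosome 5, C1r and C1s on chromosome 4, and C2 and Cfb on chromosome 20, with 0 annotated genes between the members of each cluster.

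C3 rose in the artery 24 h after 3VO relative to sham surgery, the 1 complement probe set of 9 that passed there. Whether it rose more than the others was not decided. The exact permutation tests of ratios, described further on, cannot give a p under 0.1 with 3 against 3 arrays. They also left out Cd55 and the probe set shared by Cfb and C2. The C3 signal was 19484, 22155 and 14771 on the 3VO arrays of 24 h, against 7702, 5036 and 7914 on the sham arrays of 24 h. After 3 d the signal was 7835, 5647 and 6569 after 3VO, against 6398, 8348 and 8675 after sham surgery, and intact arteries had 7402, 6612 and 9404. The 3VO arrays of 24 h thus stood above all 12 other arrays, and the other 4 groups overlapped one another, with means between 6680 and 7810. The 3 arrays of 3VO at 24 h averaged 18800 ± 3740 and the 3 of sham surgery at 24 h averaged 6880 ± 1600 (± SD). C3 was thus 2.74-fold higher after 3VO (log2 difference 1.46, SE 0.21), and it passed with limma (adjusted p = 0.0141 over 15737 probe sets). In whole arteries, a change in the number of cells of a type and a change in RNA per cell cannot be told apart. The call was lost when the variance trend was left out (adjusted p = 0.09), when the fit held only the 6 arrays compared (adjusted p = 0.0503), and without replicate 1 or 2 of 3VO or replicate 2 or 3 of sham surgery (adjusted p between 0.0617 and 0.122), while the log2 difference stayed between 1.25 and 1.62.

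At 3 d the C3 difference between 3VO and sham surgery was -0.22 on the log2 scale (95% interval -0.67 to 0.23, limma adjusted p = 0.999). Without the sham array of disputed label it was -0.36, and without the arrays rich in choroid plexus -0.14. The 3VO effect on C3 at 3 d minus that at 24 h was -1.68 (SE 0.3, 95% interval -2.32 to -1.04). Dropping any one array gave -1.84 to -1.47. This difference had the smallest unadjusted p of all 15737 probe sets (5e-05), yet did not pass after adjustment over them (limma adjusted p = 0.704). The direct comparison of 3VO arteries at 3 d with those at 24 h gave -1.48 (SE 0.21, limma adjusted p = 0.0686), again the smallest p of all probe sets and just short of the threshold. It passed with array weights, with the neuron marker mean as a covariate, and without replicate 2 of sham surgery at 24 h, replicate 3 of 3VO at 24 h or replicate 3 of the intact group (lowest adjusted p = 0.0167).

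**Figure D1:**
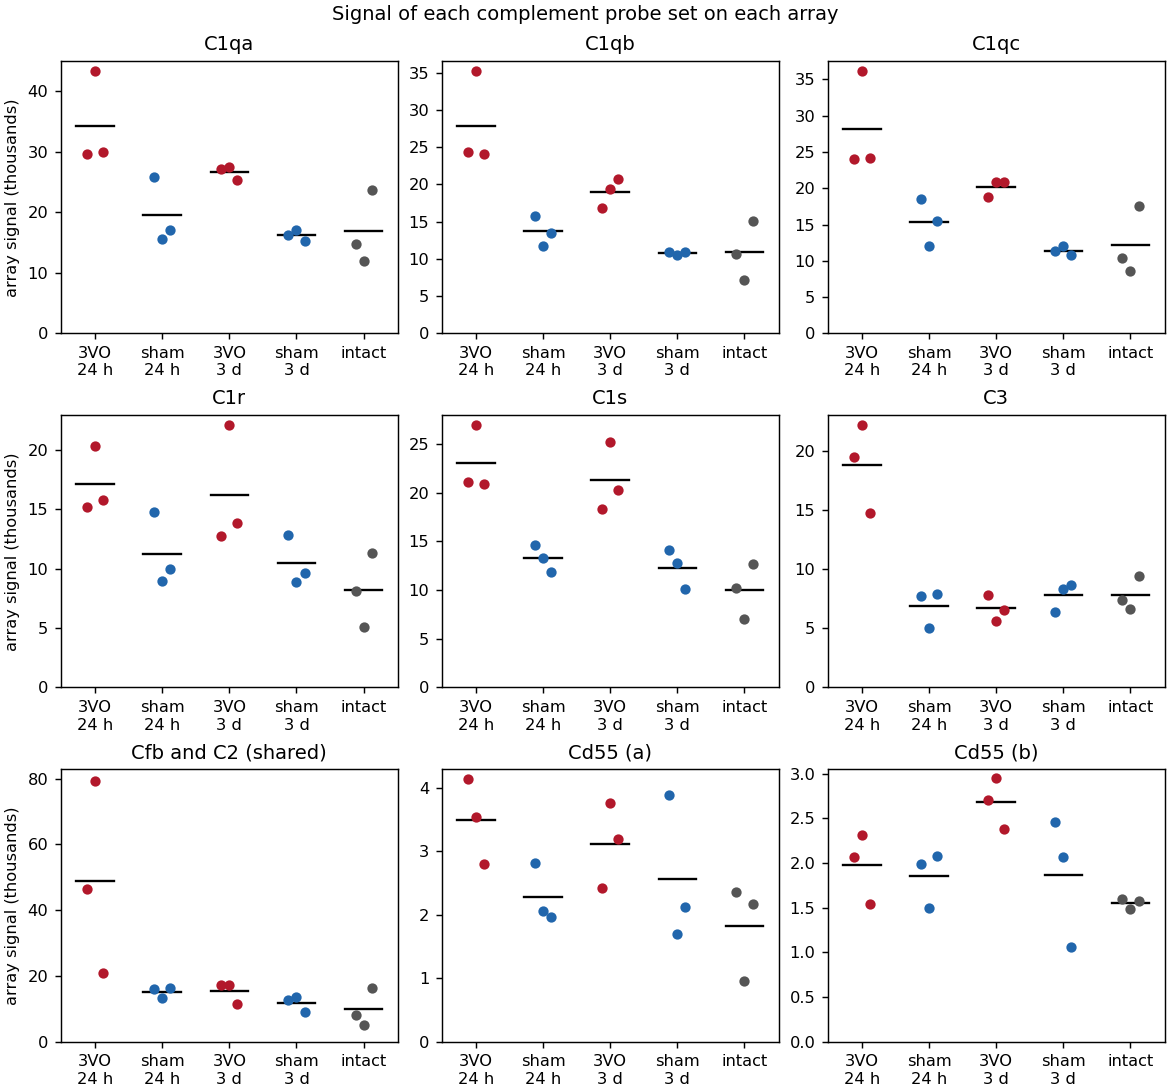
Array signal divided by 1000 (linear axis from 0) of each complement probe set on each of the 15 arrays, by group; points are arrays and bars are group means, and Cd55 (a) and (b) are its first and second probe sets. The C3 arrays of 3VO at 24 h stand alone between 14771 and 22155, whereas the 3 C1q chains and C1s are above sham surgery at both times.

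The 3 C1q chains had signals above sham surgery at both times, and none was called at either time alone. C1qa, the A chain, had 29670, 43422 and 29927 on the 3VO arrays of 24 h, against 25814, 15647 and 17018 on the sham arrays. After 3 d the signals were 27195, 27574 and 25296 after 3VO, against 16274, 17034 and 15310 after sham surgery. Intact arteries had 14818, 12004 and 23737. The operated groups did not overlap at either time, and the highest intact array lay below the lowest 3VO array.

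C1qb, the B chain, had 24345, 35172 and 24138 on the 3VO arrays of 24 h, against 15806, 11762 and 13470 on the sham arrays. The signals of 3 d were 16804, 19443 and 20708 after 3VO, against 10972, 10470 and 10984 after sham surgery, and intact arteries had 10668, 7229 and 15040. Its means fell in the order 3VO at 24 h (27900), 3VO at 3 d (19000), sham surgery at 24 h (13700), intact (11000) and sham surgery at 3 d (10800). The 3VO groups did not overlap each other or any other group, and the intact arrays spanned the range of the sham arrays of both times apart from the highest one. C1qc, the C chain, had 24041, 36144 and 24180 after 3VO at 24 h, against 18470, 12016 and 15496 after sham surgery. At 3 d it had 18747, 20870 and 20883 after 3VO, against 11401, 12064 and 10853 after sham surgery, with 10379, 8665 and 17619 in intact arteries. Here too the 3VO arrays did not overlap the sham arrays of the same time.

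At 24 h the log2 differences between 3VO and sham surgery were 0.83 for C1qa (SE 0.23, limma adjusted p = 0.397), 1.01 for C1qb (SE 0.22, adjusted p = 0.16) and 0.87 for C1qc (SE 0.23, adjusted p = 0.341). At 3 d they were 0.72 (adjusted p = 0.893), 0.81 (adjusted p = 0.703) and 0.82 (adjusted p = 0.703), and none passed at either time. The differences at 3 d were 0.72, 0.82 and 0.81 without the sham array of disputed label. Without the arrays rich in choroid plexus they were 0.68, 0.82 and 0.78. Averaged over both times, C1qb passed, at a log2 difference of 0.91 (SE 0.15, limma adjusted p = 0.0289). C1qc had 0.84 (adjusted p = 0.0667) and C1qa 0.77 (adjusted p = 0.123). The C1qb call was lost when any of the 12 operated arrays was left out (adjusted p between 0.0505 and 0.104), including the sham array of disputed label (0.92, adjusted p = 0.0686). It was also lost with median centring (adjusted p = 0.0937) and without the variance trend (adjusted p = 0.129), and it held without the arrays rich in choroid plexus (0.92, adjusted p = 0.0228).

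The C1 proteases had means above sham surgery at both times too. C1s, the protease that cleaves C4 and C2, had 21045, 26947 and 20858 on the 3VO arrays of 24 h, against 14589, 13329 and 11862 on the sham arrays. At 3 d it had 18348, 25217 and 20290 after 3VO, against 14100, 12736 and 10122 after sham surgery, and intact arteries had 10240, 7022 and 12698. All 6 of its 3VO arrays were above the other 9 arrays. C1r, which activates C1s, had 15177, 20307 and 15776 after 3VO at 24 h, against 14740, 8966 and 9991 after sham surgery. After 3 d C1r had 12762, 22062 and 13858 after 3VO, against 12835, 8892 and 9666 after sham surgery, and 8110, 5075 and 11288 in intact arteries. At 3 d the C1r groups overlapped by 1 array, the sham array of disputed label.

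The C1s difference between 3VO and sham surgery was 0.79 on the log2 scale at both times (limma adjusted p = 0.312 at 24 h and 0.703 at 3 d), and its average over both times passed, at 0.79 (SE 0.14, adjusted p = 0.0418). Like that of C1qb, the call was lost without any single one of the operated arrays (adjusted p between 0.0521 and 0.161). As for C1qb, it was also lost with median centring (adjusted p = 0.135) and without the variance trend (adjusted p = 0.186). Unlike the C1qb call, it was lost with the array number as a covariate (adjusted p = 0.0547). Without the arrays rich in choroid plexus the C1s difference was 0.72 (adjusted p = 0.044). C1r differed by 0.63 at 24 h (adjusted p = 0.697), 0.61 at 3 d (adjusted p = 0.999) and 0.62 over both times (SE 0.2, adjusted p = 0.365). Without the sham array of disputed label, C1r at 3 d was 0.76 and C1s 0.89, and with the choroid-rich sham array left out they were 0.56 and 0.65.

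The convertase probe set annotated to both Cfb and C2 was the most variable. It had 46390, 79152 and 20996 on the 3VO arrays of 24 h, against 15979, 13105 and 16156 on the sham arrays. At 3 d it had 17333, 17260 and 11336 after 3VO, against 12730, 13436 and 9056 after sham surgery, and intact arteries had 8116, 5158 and 16212. The 3VO arrays of 24 h were the highest of all 15 but spread widely, with an SD of 29200 around a mean of 48800, and the groups overlapped at 3 d. The log2 difference between 3VO and sham surgery was 1.5 at 24 h (SE 0.42, limma adjusted p = 0.397) and 0.38 at 3 d (adjusted p = 0.999), where it was 0.45 without the sham array of disputed label and 0.2 without the choroid-rich one. The difference between those effects, 3 d minus 24 h, was -1.13 (95% interval -2.39 to 0.14).

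Cd55, the decay-accelerating factor, had the lowest differences at 24 h. Its first probe set had 4135, 3535 and 2807 after 3VO at 24 h, against 2816, 2051 and 1963 after sham surgery, and 2418, 3761 and 3194 after 3VO at 3 d, against 3882, 1699 and 2127 after sham surgery. Intact arteries had 2354, 948 and 2174. The second had 2066, 2318 and 1543 after 3VO at 24 h, against 1990, 1492 and 2076 after sham surgery, and 2710, 2957 and 2376 after 3VO at 3 d, against 2464, 2070 and 1064 after sham surgery. Intact arteries had 1597, 1487 and 1571. The 3VO and sham groups of both probe sets overlapped at both times. The log2 differences were 0.62 and 0.09 at 24 h, and 0.35 and 0.6 at 3 d, with limma adjusted p of 0.794 or more. The 3 d values rested on single sham arrays: they were 0.69 and 0.84 without the one of disputed label, and 0.26 and 0.24 without the choroid-rich one. The second probe set's value at 24 h turned to -0.04 without replicate 2 of 3VO and to -0.06 without replicate 2 of sham surgery.

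Counted over the 9 probe sets, 1 was called higher after 3VO than after sham surgery at 24 h, against 0.0508% of all probe sets tested, and 7 had no overlap between 3VO and sham arrays in the higher direction, against 6.42%. The median log2 difference of the 9 was 0.83, with -0.018 over all probe sets. At 3 d limma called 0 of 9, with 0% of all probe sets called, and 5 of 9 had an unadjusted p under 0.05, against 4.73%. In 4 of 9, namely the C1q chains and C1s, the arrays did not overlap, against 4.34%. Over both times 2 were called, against 0.108% in the higher direction, and the median was 0.77 with -0.013 over all. For the difference of the effects between the times limma called 0 of 9 and 0% of all probe sets. An unadjusted p under 0.05 was found for C3 alone of the 9, against 2.78% of all. Many of the 9 probe sets correlate with one another over the same arrays, and the genes were chosen with earlier results of these data known. The counts beside the shares are thus a description and not a test.

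**Figure D2:**
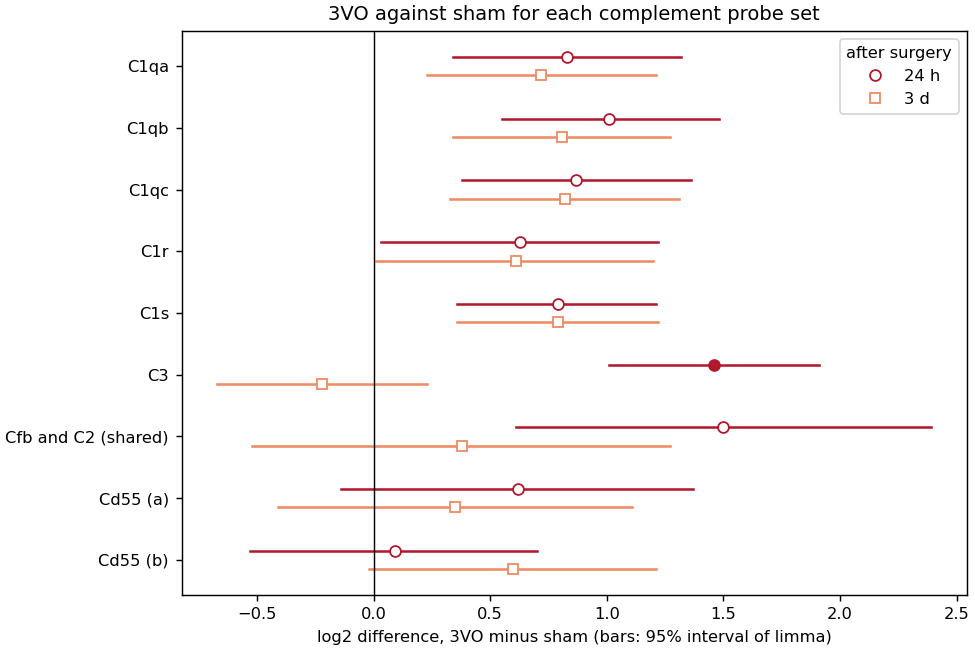
Log2 difference between 3VO and sham surgery for each complement probe set at 24 h (circles) and at 3 d (squares); lines are the 95% intervals of limma, and the filled point passed at an adjusted p under 0.05. The intervals of the C1q chains and the C1 proteases lie above 0 at both times, whereas C3 is at 1.46 at 24 h and at -0.22 at 3 d.

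The C1q chains, the C1 proteases and C3 were set against each other by their log2 ratio within an array, in 11 pairs. C3 over C1qb was -0.32, -0.67 and -0.71 on the 3VO arrays of 24 h, against -1.04, -1.22 and -0.77 on the sham arrays, and -1.1, -1.78 and -1.65 after 3VO at 3 d, against -0.78, -0.33 and -0.34 after sham surgery. The ratio was thus higher on every 3VO array than on every sham array at 24 h, and lower on every one at 3 d. The changes between 3VO and sham surgery were 0.44 and -1.03. C3 over C1s changed by 0.67 at 24 h and by -1.01 at 3 d, and C3 over C1qa by 0.63 and -0.94. C3 over C1qc changed by 0.59 and -1.04, and C3 over C1r by 0.83 and -0.83. At 3 d the 5 C3 ratios changed by -1.25 to -1.08 without the sham array of disputed label, and by -0.96 to -0.7 without the choroid-rich one.

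Each of these changes at 24 h had an exact permutation p = 0.1, 2-sided, which is the smallest that 3 against 3 arrays allow, and so had 4 of the 5 at 3 d (C3 over C1r had p = 0.2). The adjusted values over the 11 pairs were 0.138 at 24 h and 0.275 to 0.44 at 3 d. The ratios of C1q chains to C1 proteases changed by 0.04 to 0.39 at 24 h and by -0.07 to 0.21 at 3 d. C1qa over C1r (0.2), C1qb over C1r (0.39) and C1qb over C1s (0.23) likewise had no overlap at 24 h, with the same exact permutation p = 0.1 and adjusted 0.138, so this test did not set the C3 ratios apart from them there. Over both times 0 of the 11 pairs passed the exact permutation test, whose smallest p is 0.005, and the lowest adjusted p was 0.715. That test took the mean of the changes at 24 h and at 3 d. For the C3 ratios these had opposite signs and largely cancelled, with means of -0.29 to 0. It thus cannot decide whether the C3 ratios changed at either time, and the difference between the times was not tested.

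**Figure D3:**
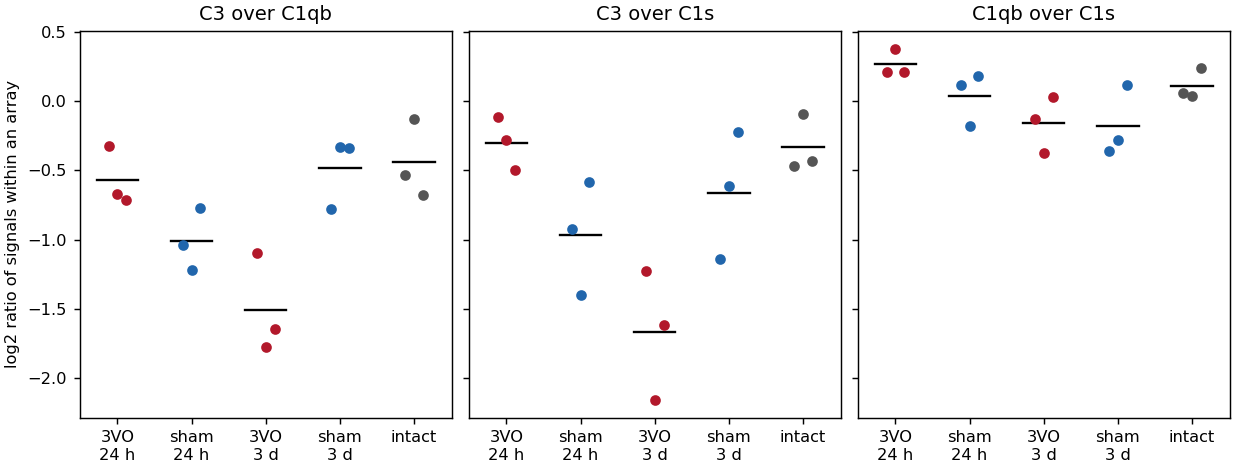
Log2 ratio of C3 to C1qb, of C3 to C1s and of C1qb to C1s within each array, by group; points are arrays and bars are group means. The C3 ratios are higher after 3VO than after sham surgery at 24 h and lower at 3 d, and C1qb over C1s is also higher without overlap at 24 h (0.23), with a change of 0.02 at 3 d.

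Intact arteries give the level without surgery, and all contrasts with them share the same 3 arrays. These carry the last array numbers of the series, so the contrasts with them are confounded with array number. At 24 h after 3VO, 5 of the 9 probe sets were called higher than in intact arteries, against 0.178% of all probe sets, and 8 did not overlap, against 7.59%. These were the probe set annotated to both Cfb and C2 (log2 2.27, limma adjusted p = 0.0467), C1qb (1.38, adjusted p = 0.0176), C3 (1.26, adjusted p = 0.0231), C1qc (1.24, adjusted p = 0.0475) and C1s (1.23, adjusted p = 0.0212). C1r (1.13, adjusted p = 0.146), C1qa (1.06, adjusted p = 0.108) and the Cd55 probe sets (1.02 and 0.33) did not pass. Without the arrays rich in choroid plexus 0 of 9 were called and the C3 difference was 1.15. Over all probe sets 9 were called there, against 29 as reported. The count of complement probe sets was also 0 without replicate 2 of 3VO or replicate 1 of the intact group, beside 7 and 15 of all. It was 1 without replicate 1 of 3VO or replicate 2 of the intact group, beside 15 and 14 of all. With the array number as a covariate it was 0, beside 1 of all.

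At 3 d after 3VO, C1s was called higher than in intact arteries (log2 1.12, limma adjusted p = 0.0356), 1 of 9 against 0.21% of all probe sets, and 7 of 9 did not overlap, against 10.3%. C1r had 1.02, C1qb 0.85, C1qc 0.79, C1qa 0.72, and C3 -0.22 (adjusted p = 0.696). The C1s call was lost without the arrays rich in choroid plexus (0.89, adjusted p = 0.0886) and with the array number or the neuron marker mean as a covariate. It was also lost with median centring, without the variance trend and in the groups of the contrast alone. When single arrays were left out it held in 5 of 15 fits, with a limma adjusted p of up to 0.213. Leaving out replicate 3 of the intact group, whose C1q, C1r and C1s signals were the highest of its group, raised the count to 5 and that of all probe sets to 258 of 15727, against 35 as reported. Sham arteries against intact ones had 0 of 9 called at both times, with 0% of all probe sets called by limma. That background rested on replicate 3 of the intact group: without it limma called 818 of 15727 probe sets at 24 h and 184 at 3 d, and still 0 of 9. At an unadjusted p under 0.05 there was 1 of 9 at 24 h against 15% of all, and 0 of 9 at 3 d against 14.2%. The log2 differences of sham surgery from intact ranged from -0.19 to 0.77 at 24 h and from -0.03 to 0.51 at 3 d. Those of C1s were 0.44 and 0.33, against 0.21 and 0.23 without the choroid-rich arrays and 0.12 and 0.08 with the mean of the neuron markers, described further on, as a covariate.

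Within 3VO arteries, 5 of 9 probe sets were lower on every array of 3 d than on every array of 24 h, against 4.68%: the 3 C1q chains, C3 and the probe set annotated to both Cfb and C2. The log2 differences, 3 d minus 24 h, were -0.34 for C1qa, -0.54 for C1qb, -0.45 for C1qc and -1.5 for the shared probe set (limma adjusted p between 0.701 and 0.902). Limma called 0 of 9 and 0% of all, with 3 of 9 at an unadjusted p under 0.05 against 5.76%. The second Cd55 probe set was higher on every array of 3 d (0.45, adjusted p = 0.901), 1 of 9 against 9.34%. In sham arteries 1 of 9 was lower without overlap, against 4.55%.

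Across the 15 arrays the C1q chains correlated at Pearson r of 0.96 to 0.98 on the log2 scale, and at 0.89 to 0.95 in the deviations from their group means. C1r and C1s correlated at 0.94 and, within groups, at 0.88. C1q chains against C1 proteases gave 0.86 to 0.92, and 0.75 to 0.82 within groups. C3 stood apart from the proteases, at 0.42 with C1r and 0.46 with C1s (0.21 and 0.12 within groups), and at 0.66 to 0.69 with the C1q chains (0.56 to 0.65 within groups). The probe set annotated to both Cfb and C2 correlated at 0.79 with C3 (0.61 within groups). It had 0.86 to 0.87 with the C1q chains (0.72 to 0.77 within groups). With C1r and C1s it had 0.75 and 0.79 (0.61 and 0.72 within groups). The 2 Cd55 probe sets correlated at 0.54. All pairs share the RNA pool and the scaling of the same arrays. Replicate 2 of 3VO at 24 h was the highest of its group for 8 of the 9 probe sets, replicate 3 of the intact group for 7, and replicate 2 of the intact group, 1 of the arrays rich in choroid plexus, was the lowest for 9.

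The genes whose signal over the 15 arrays was most like that of C1qb were Timp1, an inhibitor of matrix metalloproteinases (r = 0.946), the matrix cytokine Spp1 (0.937), the Fc receptor Fcgr2b (0.935), the phospholipase Pla1a (0.934) and the macrophage glycoprotein Gpnmb (0.931). For C1s they were Fcgr2b (0.959), Gpnmb (0.957), the interferon-induced Ifitm1 (0.95), Pla1a (0.948) and the glycosyltransferase A3galt2 (0.941). None of these was among the 5 most like C3, which were Cngb1, annotated as a channel subunit (0.885), the mitochondrial folate enzyme Mthfd2 (0.847), the prostaglandin receptor Ptger2 (0.795), the acute phase protein Lcn2 (0.794) and LOC102549726 (0.787).

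Other complement genes did not pass in any contrast of 3VO with sham surgery. Of 20 other soluble components 11 were measured, 7 of them with a log2 difference above 0 over both times and a median of 0.04. Over all probe sets 47.6% were above 0 there. The lectin pathway protease Masp1 had 0.44 and 0.4 on its brighter probe sets (limma adjusted p = 0.322 and 0.559) and -0.01 on a dim one. Factor D, Cfd, which activates factor B, had 0.46, and the ficolins Fcna and Fcnb had 0.44 and 0.55. Of 12 regulators 10 were measured, 6 of them above 0, with a median of 0.03. The C1 inhibitor Serping1, which blocks C1r and C1s, had 59229, 93240 and 58516 after 3VO at 24 h, against 56021, 48289 and 61722 after sham surgery, and 59135, 68566 and 50676 after 3VO at 3 d, against 41554, 44992 and 35332 after sham surgery. Its groups overlapped at 24 h and not at 3 d, and over both times it differed by 0.43 (adjusted p = 0.477). Vitronectin, Vtn, which blocks the terminal complex, had -0.53 (adjusted p = 0.552), the C4b-binding protein chain C4bpb 0.7 and Susd4 0.17.

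Of 9 receptors 4 were measured, with a median of 0.07 over both times. Itgam, the alpha chain of complement receptor 3, had 1500, 3344 and 2482 after 3VO at 24 h, against 1558, 813 and 999 after sham surgery, and differed by 0.93 over both times (limma adjusted p = 0.542). The anaphylatoxin receptors C3ar1 and C5ar1 had 0.1 and 0.03, and Cd93 had -0.5 and -0.2 on its 2 probe sets. By limma 0 of these 25 genes were called, and at an unadjusted p under 0.05 over both times there were 1 soluble component, 2 regulators and 1 receptor, against 8.69% of all probe sets.

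**Figure D4:**
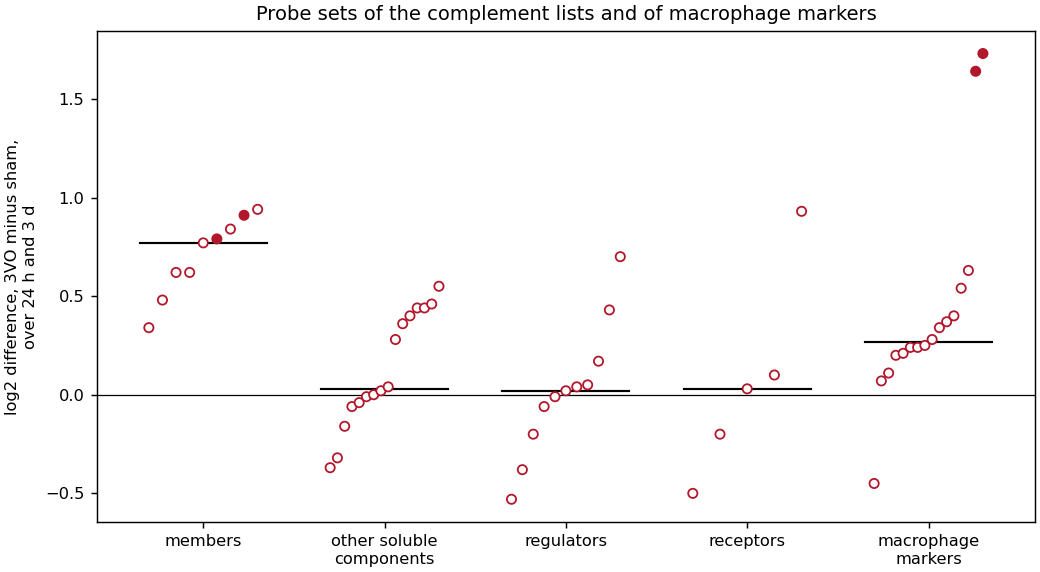
Log2 difference between 3VO and sham surgery over both times for each probe set, the one shared by Cfb and C2 included, by list: the complement genes described here (members), other soluble components, regulators, receptors and macrophage markers. Bars are medians over probe sets and filled points passed at an adjusted p under 0.05; the medians are 0.77 for the members and 0.03 or less for the other complement lists.

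Markers of other cells moved beside these genes, and their part in the results was not tested. Of 18 macrophage markers 14 were measured, with medians of 0.2 at 24 h and 0.28 at 3 d. Above 0 were 13 of them at 24 h, where 47.3% of all probe sets were, and 14 at 3 d, beside 48.5% of all. Their summed signal was 302000 to 428000 after 3VO at 24 h, against 231000 to 307000 after sham surgery, and 268000 to 323000 after 3VO at 3 d, against 205000 to 256000 after sham surgery, with 161000 to 282000 in intact arteries. Over both times Gpnmb (log2 1.73, limma adjusted p = 0.00901) and Fcgr2b (1.64, adjusted p = 0.0118) passed, beside 0.108% of all probe sets called higher. Csf1r, which encodes the receptor that macrophages depend on, had 0.11 and Cd68 0.54. None of the measured markers was at 0. Neuron markers were above 0 in 10 of 10 measured genes at 24 h and 8 of 10 at 3 d (medians 1.07 and 0.23), with sums of 71300 to 147000 after 3VO at 24 h, against 43800 to 81800 after sham surgery. With their mean as a covariate, 4 of the 9 complement probe sets were called at 24 h (C3 and the C1q chains) and 5 over both times (the C1q chains, C1r and C1s), while the calls over all 15737 probe sets were 19 at 24 h, against 8 as reported, and 35 over both times, against 22.

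The other marker lists had 0 genes called in 3VO against sham surgery by limma. Over both times the median log2 difference was -0.2 for 4 neutrophil markers, -0.71 for 9 of choroid plexus, -0.23 for 12 of leptomeningeal fibroblasts, 0.16 for 10 of astrocytes, -0.56 for 7 of smooth muscle and -0.28 for 7 of endothelium. It was -0.27 for 6 hepatocyte markers and -0.8 for 3 erythroid ones. At unadjusted p under 0.05 there were 1, 1, 4, 1, 6, 2, 1 and 3 such genes, in the same order, against 8.69% of all probe sets. Smooth muscle sums were 233000 to 330000 after 3VO at 24 h, against 418000 to 489000 after sham surgery, without overlap. All 7 of these genes had a difference under 0 at both times, while 47.3% of all probe sets were above 0 at 24 h and 48.5% at 3 d.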

How the data were processed

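RNA of rat posterior cerebral arteries was measured on 15 Affymetrix Rat230A arrays in 5 groups of 3. The deposited values are a linear array intensity that the authors made with GCOS (named in the submitters' processing notes, version not given in the sources used here). A global intensity of 500 is stated as the target in the design text. All 15 arrays instead had a mean of 5000.0 once 2% of the signals at either end were trimmed, so the pseudocount and filter below are looser than that target would make them. The authors' scaling was kept; between 1.36% and 5.27% of signals on an array were below 100. The number of arrays limits the precision. No pair of arrays within a group was a duplicate (r across probe sets between 0.9129 and 0.9551).

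Signals were taken as log2(signal + 16). A probe set entered the fit if 3 or more arrays reached 100, which left 15737 of 15866, all 9 complement probe sets among them; the 57 controls were left out. Symbols came from the platform table: 12783 probe sets have 1 gene, 312 several and 2771 none, and only probe sets with 1 gene were named, apart from the shared one of Cfb and C2. Lists are counted by gene on its brightest probe set. limma 3.58.1 in R 4.3.3 fitted 5 group means to all arrays (10 residual degrees of freedom, eBayes with a variance trend), 2-sided, with Benjamini-Hochberg adjustment over all probe sets within a contrast and a threshold of 0.05. Within-array ratios were tested by exact permutation. Motif searches used the promoter table alone. The fit was tested on simulated data.

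The members and lists were chosen with earlier results of these data known. Named genes were all probe sets of the listed genes. From the other complement lists any gene called in 3VO against sham surgery was to be named, with up to 4 a list of smallest p over both times, and a gene named so is given with all its probe sets. For likeness the 5 highest correlations with C1qb, C1s and C3 were taken, and of the marker lists up to 3 genes, the first measured, with those that were called added after their values were seen. Alternatives were pseudocounts of 1 and 64, no filter, a minimum of 1000 with a pseudocount of 160, quantile normalization, median centring, no variance trend, array weights, the groups of the contrast alone, the array number or the neuron marker mean as a covariate, and leaving out each array. Dropping both choroid-rich arrays was an alternative chosen after seeing the data.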

Additional observations from a re-analysis of the deposited data

Results flagged for a closer look

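The change of the C3 ratios between 3VO and sham surgery ran in opposite directions at the 2 times. C3 over C1qa was higher on every 3VO array than on every sham array at 24 h and lower on every one at 3 d, and the change at 3 d minus that at 24 h was -1.57 on the log2 scale. The same held for C3 over C1qb (-1.47), C3 over C1qc (-1.63) and C3 over C1s (-1.68). These differences between the times were not tested. The 4 ratios share the C3 signal of the same 12 arrays and are not independent of each other, and the sham arrays of 3 d include the array whose treatment text describes the occlusion.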

How the results depend on the processing

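Of 1458 recomputed values (54 log2 differences of the complement probe sets under 27 alternatives), 1318 kept their direction and their side of the threshold, 112 lost a call, 25 gained one and 3 reversed. Only values that passed as reported could lose a call, and all 112 losses fell on those. Against sham surgery they were C3 at 24 h, and C1qb and C1s over both times. Against intact arteries they were 5 probe sets for 3VO at 24 h and C1s for 3VO at 3 d. The 1318 were mostly values that had no call to lose. The reversed ones were the second Cd55 probe set at 24 h, -0.04 without replicate 2 of 3VO and -0.06 without replicate 2 of sham surgery (range without single arrays -0.06 to 0.25), and the same probe set for 3VO at 24 h against intact arteries, -0.13 with the array number as a covariate. For 3VO against sham surgery at 24 h the number of complement probe sets called was 0 without the variance trend and in the groups of the contrast alone, 2 with array weights, 4 with the neuron covariate, and 0 to 1 when single arrays were left out. Over all probe sets the calls were 2, 20, 25, 19 and 1 to 13 in the same order, against 8 as reported. Over both times it was 0 with median centring or without the variance trend, 1 with the array number as a covariate, 4 with array weights or in the groups of the contrast alone, 5 with the neuron covariate, and 0 to 4 without single arrays, beside 15, 5, 24, 37, 44, 35 and 7 to 32 of all probe sets, against 22 as reported. For 3VO at 24 h against intact arteries it was 1 with median centring, 0 without the variance trend, in the groups of the contrast alone, with array number as covariate, and without the 2 choroid-rich arrays, and 0 to 7 without single arrays, beside 15, 8, 3, 1, 9 and 7 to 227 of all, against 29. For 3VO at 3 d against intact arteries it was 0 with median centring, without the variance trend, in the groups of the contrast alone, with the array number or the neuron covariate and without the 2 choroid-rich arrays, and 0 to 5 without single arrays, beside 2, 4, 0, 3, 4, 7 and 0 to 258 of all, against 35. For 3VO at 3 d against 3VO at 24 h it was 1 with array weights and with the neuron covariate, and 0 to 1 without single arrays, beside 4, 2 and 0 to 2 of all, against 0. In the groups of the contrast alone and without single arrays the fits hold fewer arrays; otherwise the cause was not tested. Pseudocounts, filters and quantile normalization moved none of these counts by over 1.5 times. No paired analysis was possible because the labels number the arrays straight through and pair none.

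With 3 arrays a group, each a pool of 8 rats, the C3 call at 24 h and the C1qb and C1s calls over both times depend on single arrays, and the direction of all 3 held in every alternative run. The calls of 3VO against intact arteries depend on single arrays too. Array signal does not count molecules, and levels of different probe sets were not compared. The intact group is 1 set of 3 arrays, those with the last array numbers, shared by 4 contrasts.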
